A study of Mus musculus with 16 samples.

Results

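The proteasome subunit genes of mouse brain were taken as every gene symbol in the deposited counts that begins with Psm, a letter from a to g and a number. The 4 pseudogene symbols of the same form that end in -ps were left out. That rule gave 50 genes of 43472 symbols: 19 genes of the core particle (Psma and Psmb), 20 of the cap (Psmc and Psmd), 10 of the regulators (Psme, Psmf and Psmg) and Psmc3ip, which encodes a meiotic recombination factor and no proteasome subunit. In the counts, 47 of the 50 had enough reads to be tested. The testis subunit gene Psma8 (31 reads over the 16 libraries, 0 to 5 in each), the thymus subunit gene Psmb11 (10 reads, 0 to 3) and the immunoproteasome gene Psmb9 (86 reads, 2 to 10) did not.

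The 16 libraries fall into 4 groups of 4, all from brain. Mice labelled Prepl knockout were set against 4 WT mice, here called the Prepl wild types, and mice labelled PWS-IC deleted against another 4 WT, the PWS-IC wild types. Loss of Prepl, a gene for a serine hydrolase, underlies congenital myasthenic syndrome-22, and the imprinting centre (PWS-IC) controls the paternally active genes of the Prader-Willi region. The study asked how alike the brains of both mouse models are. The sources used here do not give strain, age, how each allele was made or whether each of the 4 replicates is its own animal. A p-value here therefore reflects only how far these samples spread, which may be technical in part. In the Prepl knockouts, read as all male, the spread may be technical in whole.

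The proteasome is the protease that degrades ubiquitin-tagged proteins in the cytosol and nucleus. Its core is a barrel of alpha and beta subunits, in which Psmb5, Psmb6 and Psmb7 encode the catalytic subunits found in most cells. Psmb8, Psmb9 and Psmb10 encode their replacements in immune cells and under interferon. The cap unfolds and feeds in substrates with a ring of ATPases (Psmc) on a scaffold of non-ATPase subunits (most Psmd genes). Psmd5, Psmd9 and Psmd10 encode chaperones of cap assembly and are counted here with the cap. In neurons the proteasome also takes part in the turnover of synaptic proteins. Psme genes encode other activators of the core, Psmf1 an inhibitor and Psmg genes chaperones of its assembly.

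Levels are CPM, counts scaled to a common total of reads in genes, and reads in genes numbered 3477624 to 5852716 per library. The libraries were made by capturing poly(A) tails and reading transcript ends, so CPM was not divided by length. Prepl fell from 34.8 ± 1.35 CPM (SD, n = 4) to 1.64 ± 0.453 in its knockout, and Ndn, a gene of the Prader-Willi region, fell from 556 ± 11.1 to 4.30 ± 1.90 CPM in the deleted mice. Summed CPM of 8 neuron markers was 6117 to 7106 in every library, and none was at 0 throughout a group. Read from Xist and Y-linked genes, the Prepl wild types were 3 females and 1 male (replicate 4) and the Prepl knockouts 4 males. Each PWS-IC group held 2 males (replicates 1 and 2) and 2 females. A group with both sexes holds more than 1 animal. Reads outside genes made up 15.98% to 19.6% of tabled reads for the Prepl wild types, 16.1% to 19.2% for the knockouts, 11.4% to 13.7% for the PWS-IC wild types and 17.7% to 20.1% for the deleted mice. Prepl wild type replicate 1 stood apart with both the highest share in its group and the lowest summed proteasome level, 4837 CPM. In bulk tissue, fewer cells of a type and less RNA per cell cannot be told apart.

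Promoter sequence was available in RefSeq (GRCm38.p6) for 42 of the 50 genes; Psma8, Psmb1, Psmb2, Psmb7, Psmc3, Psmd3, Psmd7 and Psmg2 are named only. In the 250 bases before the RefSeq start, 3 motifs were searched on both strands, a set chosen after the genes' values had been seen. The antioxidant response core TGACNNNGC, the form bound by Nrf1 and Nrf2 with small Maf partners, lay in 5 of 42 genes (11.9%, against 11.5% of all 27025 genes in the table). CCAAT, the NF-Y motif, lay in 15 (35.7%, against 37.5%). CCGGAAG, the form bound by ETS factors, lay in 13 (31.0%, against 7.83%). Psmc3ip, no subunit, is among the 42 and held both CCAAT and CCGGAAG. The shares of all genes were not limited to genes expressed in brain. None of the 3 motifs contains another, and the shares are a description with no test. Up to 150 bases before the RefSeq start are shown for the genes in the table that were higher in the PWS-IC deletion (Psma4, Psmc1, Psmc5 and Psmg3) and for Psmb5 and Psmb6, catalytic subunit genes with the antioxidant core. By GENCODE M21 transcription starts earlier, by 69 bases in Psma4, 48 in Psmc1, 31 in Psmc5 and 27 in Psmb5, and each stretch ends at most 30 bases inside the GENCODE gene. Capitals mark a match to TGACNNNGC, CCAAT or CCGGAAG on either strand.
Psma4, chr9:54950709-54950819, + strand: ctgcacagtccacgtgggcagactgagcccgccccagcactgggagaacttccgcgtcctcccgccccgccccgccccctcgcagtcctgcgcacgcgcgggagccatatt
Psmc1, chr12:100110052-100110183, + strand: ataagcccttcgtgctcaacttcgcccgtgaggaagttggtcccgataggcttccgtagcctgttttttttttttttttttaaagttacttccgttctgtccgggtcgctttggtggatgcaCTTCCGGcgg
Psmc5, chr11:106256035-106256183, + strand: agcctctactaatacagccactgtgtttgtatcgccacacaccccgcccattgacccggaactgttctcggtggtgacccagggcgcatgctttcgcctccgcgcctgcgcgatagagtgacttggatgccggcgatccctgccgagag
Psmg3, chr5:139826895-139827044, - strand: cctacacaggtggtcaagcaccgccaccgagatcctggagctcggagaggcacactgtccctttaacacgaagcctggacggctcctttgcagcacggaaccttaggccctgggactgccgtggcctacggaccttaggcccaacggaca
Psmb5, chr14:54617996-54618145, - strand: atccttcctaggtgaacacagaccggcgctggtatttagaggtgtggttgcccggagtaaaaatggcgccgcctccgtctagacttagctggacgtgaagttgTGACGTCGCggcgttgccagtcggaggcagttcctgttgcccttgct
Psmb6, chr11:70525207-70525356, + strand: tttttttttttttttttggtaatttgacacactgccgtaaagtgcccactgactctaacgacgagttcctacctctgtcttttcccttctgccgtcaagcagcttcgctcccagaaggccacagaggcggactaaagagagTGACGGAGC
Of the 4 raised genes shown, Psmc1 alone held any of the 3 motifs: CCGGAAG 28 bases before its RefSeq start, which lies inside the GENCODE gene, and a CCAAT box 175 bases before that start, outside the stretch shown. Psma4, Psmc5 and Psmg3 held none in their 250 bases, which says only that these letters are not in that window.

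Nearly every constitutive subunit gene was well expressed. Psmc1, an ATPase of the cap, had the highest mean over the 16 libraries (377 CPM), followed among the highest by Psma7 of the alpha ring (370 CPM) and Psmb4 of the beta ring (309 CPM). The median of the subgroup means was 135 CPM for the 8 alpha genes, 151 CPM for the 7 constitutive beta genes, 136 CPM for the 6 ATPases and 173 CPM for the 14 non-ATPase genes. Below these came the activators (42.1 CPM over 5 genes), Psmf1 (41.5 CPM) and the Psmg chaperones (37.4 CPM over 4 genes). Of the catalytic genes, Psmb6 (224 CPM) and Psmb7 (151 CPM) lay above Psmb5 (35.4 CPM), the subunit with chymotrypsin-like activity. Psmb10 (32.4 CPM) lay near Psmb5, whereas Psmb8 (2.36 CPM, the lowest of the genes tested) and Psmb9 (1.07 CPM) rested on few reads. Efficiency of capture can differ between transcript ends, so the order of genes is less certain than the order of samples.

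In the Prepl knockout no proteasome gene passed the test. Of 47 genes tested 0 passed an adjusted p of 0.05 (edgeR quasi-likelihood test, Benjamini-Hochberg over all 13722 genes), where 0.262% of all genes did, and the smallest adjusted p was 0.250. At an unadjusted p under 0.05 stood 4 genes (8.51%, against 9.43% of all genes), 3 higher and 1 lower, and DESeq2 and limma voom also called 0. Log2 fold changes ran from -0.28 to 0.80 with a median of 0.06, against 0.00 for all genes, and 34 of 47 lay above 0. That median was 0.01 without Prepl wild type replicate 1 and 0.00 with sex as a covariate. The knockouts were all male, so sex and genotype are in part confounded in this comparison.

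Psmb2, a beta subunit gene without catalytic activity, was lower in all 4 knockouts than in any wild type. It measured 56.4, 61.8, 67.1 and 63.8 CPM in the wild types and 47.7, 49.4, 51.9 and 51.4 CPM in the knockouts. The groups did not overlap, as in 4.09% of all genes in that direction, and the log2 fold change was -0.28 ± 0.088 (SE, n = 4, edgeR adjusted p = 0.250). Psme2, which encodes the beta subunit of the interferon-inducible activator PA28, lay the other way. Its wild types measured 7.74, 12.8, 11.7 and 11.6 CPM and its knockouts 15.6, 15.5, 13.0 and 18.5 CPM. Every knockout was above every wild type, as in 1.6% of all genes, with a log2 fold change of 0.53 ± 0.172 (SE, n = 4, edgeR adjusted p = 0.260). Psme2 is 99.37% identical to Psme2b where they align, so its reads are uncertain, and Psme2b itself gave 0.12 ± 0.207.

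The catalytic genes of the core did not pass the test in the knockout. Psmb5 measured 26.3, 31.2, 30.9 and 33.3 CPM in the wild types and 37.8, 26.2, 34.7 and 29.98 CPM in the knockouts. Psmb6 measured 167, 200, 195 and 214 CPM against 213, 193, 203 and 202 CPM. For both, the groups overlapped. Psmb7 measured 95.7, 110, 124 and 135 CPM in the wild types and 127, 119, 132 and 155 CPM in the knockouts, a log2 difference of 0.23 ± 0.093 (SE, n = 4, edgeR adjusted p = 0.438) between overlapping groups. Psmb8, the immunoproteasome counterpart of Psmb5, measured 2.65, 0.861, 1.38 and 1.52 CPM in the wild types and 2.53, 2.78, 2.57 and 2.78 CPM in the knockouts. Wild type replicate 1 lay among the knockouts and the other 3 wild types below them, for a log2 difference of 0.80 ± 0.368 (SE, n = 4, edgeR adjusted p = 0.512). Its reads were 12, 5, 8 and 8 in the wild types and 13, 14, 14 and 14 in the knockouts, so Psmb8 was tested mainly through the knockouts. It gave the highest log2 fold change of the genes tested and was among those at an unadjusted edgeR p under 0.05. Psmb10 measured 29.8, 30.1, 29.7 and 33.7 CPM against 31.2, 27.8, 29.3 and 31.4 CPM, and Psmb9 0.663, 0.517, 1.55 and 0.762 CPM against 0.390, 0.595, 1.10 and 0.794 CPM. Of 8 interferon and antigen presentation markers 0 were called in this comparison.

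In the PWS-IC deletion 5 proteasome genes rose and 0 passed the test as lower. They were Psma4 of the alpha ring, Psmb7 of the catalytic beta ring, the cap ATPases Psmc1 and Psmc5, and Psmg3, which encodes an assembly chaperone of the core. Among all 13636 genes tested, 2.96% were called higher and 1.55% lower; of the 47 proteasome genes 10.6% were called, and 13 (27.7%, against 18.2% of all genes) stood at an unadjusted p under 0.05, 10 higher and 3 lower. With the replicate number as a block, with sex as a covariate or in 1 fit of all 16 libraries, 9 proteasome genes were called in each, 8 higher and Psme1 lower. In both PWS-IC groups replicates 1 and 2 were males and 3 and 4 females, so the block and sex fits are not separate checks. The median log2 fold change over the 47 was 0.03, against -0.01 for all genes. Changes were thus small and did not take the whole complex in 1 direction: 30 of 47 lay above 0 and the range was -0.29 to 0.48. The median SE was 0.0910 for the members and 0.160 for all genes tested.

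**Figure D1:**
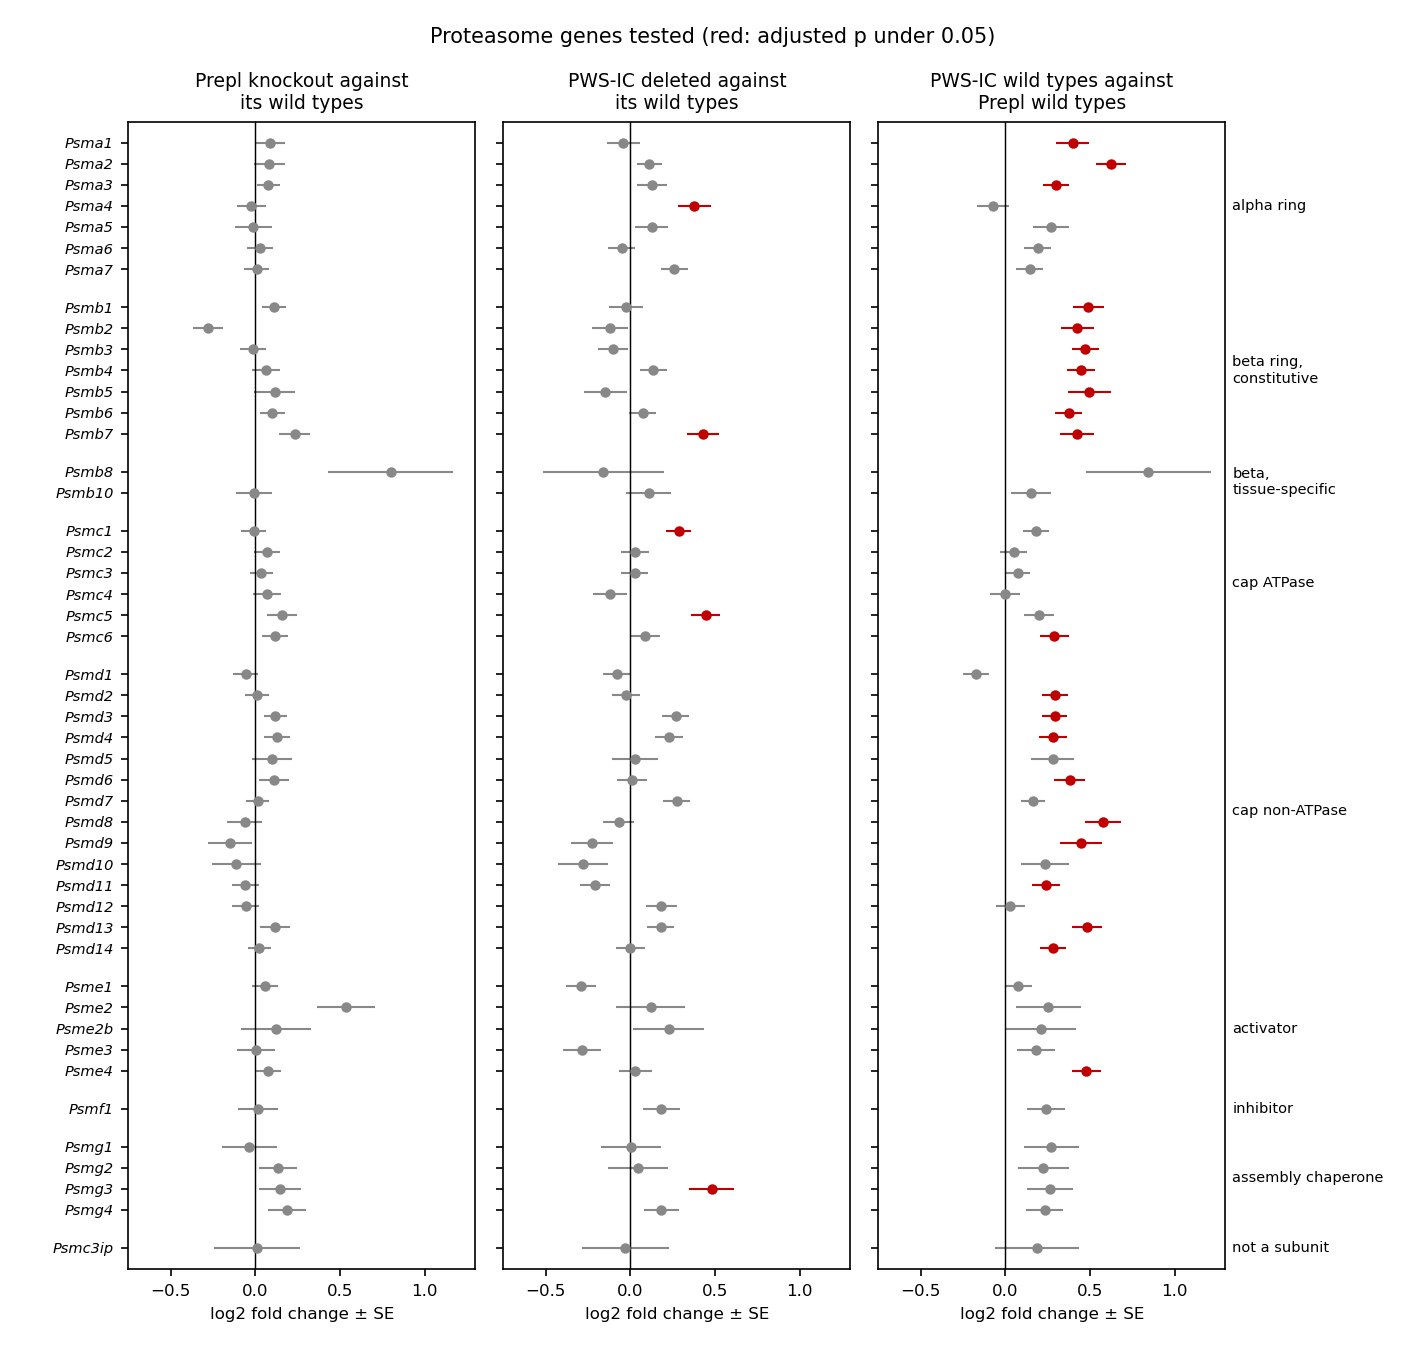
Log2 fold change ± SE (horizontal axis) of the 47 genes tested, grouped by role, in 3 comparisons; red points have an adjusted p under 0.05. There are 0 red points for the Prepl knockout, 5 for the PWS-IC deletion and 21, all to the right of 0, for the PWS-IC wild types against the Prepl wild types.

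Psmc5 (chromosome 11, 106256154 to 106263120, + strand) had the smallest p. Its wild types measured 129, 116, 133 and 145 CPM and the deleted mice 181, 167, 184 and 177 CPM. The groups did not overlap, and the log2 fold change was 0.44 ± 0.084 (SE, n = 4, edgeR adjusted p = 0.0041). Psmb7 (chromosome 2, 38588036 to 38644087, - strand), the trypsin-like catalytic subunit gene, measured 166, 124, 148 and 166 CPM in the wild types and 184, 209, 206 and 210 CPM in the deleted mice. Here too every deleted library was above every wild type (0.43 ± 0.094, SE, n = 4, edgeR adjusted p = 0.012). On the other strand Psmb7 overlaps Nek6 and Gm13586, and the strand setting of the counting is not stated. On the same strand Psmb7 overlaps Gm27634 and Psmc5 overlaps Gm23645. Psmc5 and Psmb7 kept an adjusted p under 0.05 when any 1 of the 8 libraries was left out.

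Psma4 (chromosome 9, 54950790 to 54958030, + strand) measured 133, 97.7, 135 and 139 CPM in the wild types and 157, 153, 175 and 167 CPM in the deleted mice. The groups did not overlap, but wild type replicate 2 lay far below the other 3. The log2 fold change was 0.38 ± 0.098 (SE, n = 4, edgeR adjusted p = 0.031) and without that library 0.28 (adjusted p = 0.055). Leaving out wild type replicate 3 (0.056), or deleted replicate 1 (0.061), 3 (0.080) or 4 (0.063), also ended the call. On the other strand Psma4 overlaps AY074887.

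Psmc1 (chromosome 12, 100110154 to 100123405, + strand) measured 360, 369, 381 and 395 CPM in the wild types and 474, 454, 447 and 449 CPM in the deleted mice. Its 8 libraries lay close together within each group, with a log2 fold change of 0.28 ± 0.075 (SE, n = 4, edgeR adjusted p = 0.033). With fewer libraries the change stayed at 0.26 to 0.31, yet it kept its call only without wild type replicate 2 (adjusted p 0.040 to 0.112 over the 8 sets). Without a filter on low counts its adjusted p was 0.063.

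Psmg3 (chromosome 5, 139823592 to 139826885, - strand) measured 46.5, 33.5, 52.4 and 41.7 CPM in the wild types and 48.4, 55.6, 67.6 and 70.1 CPM in the deleted mice. Deleted replicate 1 lay below wild type replicate 3, so the groups overlapped. The log2 fold change was 0.48 ± 0.134 (SE, n = 4, edgeR adjusted p = 0.045). The call was kept only without wild type replicate 3 or deleted replicate 1 (adjusted p 0.027 to 0.127 over the 8 sets). On the same strand Psmg3 overlaps the protein-coding gene Gm26938, which is also in the counts. Both are 100% identical over 280 bases, so the reads of Psmg3 are uncertain.

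**Figure D2:**
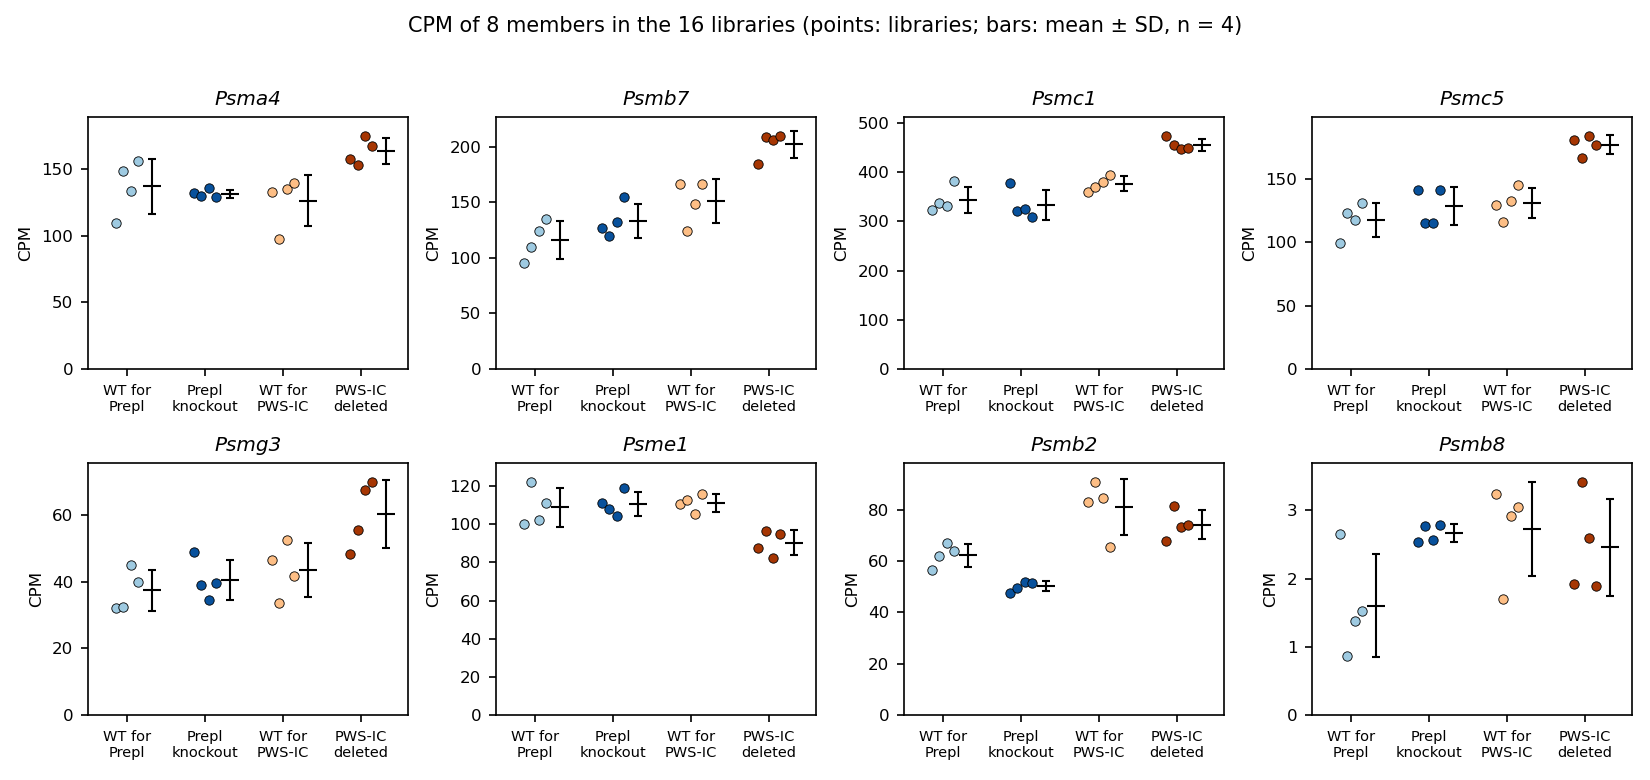
CPM (vertical axis, from 0) of 8 genes in each of the 16 libraries by group, with the mean ± SD of 4 libraries beside the points. For Psma4, Psmb7, Psmc1 and Psmc5 all 4 deleted libraries lie above their 4 wild types; Psmg3 overlaps at 48.4 and 52.4 CPM.

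Groups that do not overlap were more frequent than called genes. Of the 47 genes, 11 had all deleted libraries above all wild types, where 6.7% of all genes did, and 3 had them all below, where 5.06% did. Beside the 4 called genes among them, the higher ones were Psma2, Psma7, Psmd3, Psmd4, Psmd7, Psmd13 and Psmf1. Psmd7, a gene of the lid of the cap, measured 225, 197, 225 and 232 CPM in the wild types and 267, 256, 261 and 275 CPM in the deleted mice (0.28 ± 0.079, SE, n = 4, edgeR adjusted p = 0.053). Psmd3, a scaffold gene of the lid, measured 192, 210, 197 and 198 CPM against 236, 255, 233 and 230 CPM (0.27 ± 0.081, SE, n = 4, edgeR adjusted p = 0.065). Both lay clear of their wild types without passing the threshold, and both passed it with DESeq2 (adjusted p = 0.011 and 0.026). The lower ones were the lid gene Psmd11 (-0.21 ± 0.088, adjusted p = 0.207), Psme1, which encodes the alpha subunit of PA28 (-0.29 ± 0.088, adjusted p = 0.067), and Psme3, which encodes the nuclear activator PA28 gamma (-0.28 ± 0.112, adjusted p = 0.171). Psme1 measured 110, 113, 105 and 116 CPM in the wild types and 87.8, 96.7, 82.2 and 94.9 CPM in the deleted mice. Its adjusted p was 0.034 with the block, 0.032 with sex as a covariate and 0.032 in the 16-library fit, at nearly the same log2 fold change (-0.29 in each).

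The other catalytic genes did not follow Psmb7 past the threshold. Psmb5 measured 38.4, 44.5, 39.7 and 43.6 CPM in the wild types and 41.4, 42.2, 36.2 and 30.02 CPM in the deleted mice (-0.15 ± 0.129, adjusted p = 0.600). Psmb6 measured 240, 250, 235 and 248 CPM against 258, 271, 238 and 250 CPM (0.07 ± 0.081, adjusted p = 0.700). For both, the groups overlapped. The immunoproteasome gene Psmb8 measured 3.25, 1.70, 2.91 and 3.05 CPM against 1.92, 3.42, 2.59 and 1.90 CPM, Psmb9 1.02, 1.33, 1.82 and 1.33 CPM against 1.20, 0.912, 2.01 and 1.04 CPM, and Psmb10 27.3, 31.8, 32.9 and 40.7 CPM against 41.1, 34.9, 33.1 and 33.1 CPM. Psmb2, with no overlap in the Prepl knockout, measured 82.9, 90.9, 84.5 and 65.5 CPM in the PWS-IC wild types and 67.8, 81.6, 73.3 and 74.0 CPM in the deleted mice. Psme2 measured 9.40, 15.9, 11.8 and 13.9 CPM against 16.8, 14.8, 10.1 and 13.1 CPM. In these genes the groups overlapped, in Psmb2 only through wild type replicate 4, which lay below every deleted library.

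Other measures moved with the deletion. The share of reads outside genes separated both groups completely, so a fit with that share as a covariate cannot tell it from the deletion. In that fit 0 proteasome genes and 4 genes in all were called, with log2 fold changes of 0.38 for Psmb7, 0.39 for Psmc1, 0.33 for Psmc5, 0.15 for Psmg3 and 0.08 for Psma4 (edgeR adjusted p = 0.999 for each). Of 5 blood markers 4 fell (median log2 fold change -0.97), with a summed level of 1796 to 3970 CPM in the wild types and 1203 to 1629 CPM in the deleted mice, and none was at 0 throughout a group. Called genes among the other markers were 1 of 9 for microglia, 1 of 8 for interferon and antigen presentation and 1 of 4 for oligodendrocytes, all lower, and 0 for neurons, astrocytes and endothelium. Summed levels of 3 of these lists were nevertheless lower in each deleted library than in any wild type: 660 to 708 CPM against 731 to 764 CPM for astrocytes, 77.2 to 87.0 CPM against 87.5 to 99.6 CPM for endothelium and 135 to 152 CPM against 162 to 183 CPM for interferon and antigen presentation. The part of these measures in the proteasome values was not tested.

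Whether both mutations differ in their effect was tested with 1 contrast in the fit of 16 libraries. Of the 47 genes 0 were called, where 0.778% of 14392 genes were, and 6 (12.8%, against 11.7% of all genes) stood at an unadjusted p under 0.05, 5 higher and 1 lower; DESeq2 and limma voom also called 0. The effect of the deletion less that of the knockout was 0.41 ± 0.136 for Psma4 (edgeR adjusted p = 0.191), 0.30 ± 0.108 for Psmc1 (0.229), 0.29 ± 0.125 for Psmc5 (0.347), 0.34 ± 0.190 for Psmg3 (0.510) and 0.20 ± 0.141 for Psmb7 (0.631). The genes raised in the deletion were therefore not shown to respond differently in the knockout. There Psmb7 and Psmc5 gave log2 differences of 0.23 ± 0.093 and 0.16 ± 0.087 without passing the test, and Psma4 and Psmc1 gave -0.02 ± 0.086 and -0.01 ± 0.074.

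The proteasome genes differed most between the groups of wild types. In the PWS-IC wild types 21 of 47 were higher than in the Prepl wild types and 0 were lower (contrast of the 16-library edgeR fit), where 12.3% of all genes were higher and 12.1% lower. The median log2 difference was 0.27 over the 47 and 0.00 over all genes, and 44 of 47 lay above 0. Without Prepl wild type replicate 1, 22 were higher, the added gene being Psmb8 (1.16, adjusted p = 0.039). Its reads were 5, 8 and 8 in the Prepl wild types left, all under the minimum count of the filter. They were 19, 9, 16 and 16 in the PWS-IC wild types. Between these groups Psmb8 thus reached that minimum only where it was higher, so its values without that replicate are a description. The PWS-IC wild types also serve in the deletion comparison and the Prepl wild types in the knockout comparison, so these comparisons share libraries. Colony, batch and group cannot be told apart here.

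All 7 constitutive beta genes were higher, by 0.38 to 0.50 on the log2 scale. Psmb1 measured 145, 164, 141 and 165 CPM in the Prepl wild types and 241, 166, 205 and 223 CPM in the PWS-IC wild types (0.49 ± 0.090, SE, n = 4, edgeR adjusted p = 0.00018). Of the 7 alpha genes tested 3 were higher, led by Psma2 with 131, 177, 189 and 201 CPM against 265, 258, 263 and 254 CPM (0.62 ± 0.090, SE, n = 4, edgeR adjusted p = 8.2e-06). Of 6 ATPases only Psmc6 was higher (0.29 ± 0.084, adjusted p = 0.011), and Psmc4 gave 0.00 ± 0.088. Of 14 non-ATPase genes 9 were higher, led by Psmd8, a lid gene (0.57 ± 0.106, adjusted p = 0.00018). Of the 5 activator genes Psme4, which encodes PA200, was higher, with 78.2, 82.2, 79.5 and 80.4 CPM against 114, 95.6, 109 and 114 CPM (0.48 ± 0.086, adjusted p = 0.00013). Of the 9 non-ATPase genes that were higher, Psmd9 encodes a chaperone of cap assembly (0.45 ± 0.122, edgeR adjusted p = 0.0076). None of the 4 Psmg chaperone genes passed, nor did Psmf1 (0.24 ± 0.113, adjusted p = 0.121).

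The tissue-specific beta genes did not pass either. Psmb8 gave 0.84 ± 0.369 (edgeR adjusted p = 0.096) and Psmb10 0.15 ± 0.120 (0.386). Interferon and antigen presentation markers were higher in 4 of 8, with summed levels of 118 to 130 CPM in the Prepl wild types and 162 to 183 CPM in the PWS-IC wild types. Blood markers were higher in 5 of 5, with summed levels of 660 to 1145 CPM against 1796 to 3970 CPM. Other lists lay lower in each PWS-IC wild type: 127 to 203 CPM against 93.9 to 102 CPM for oligodendrocytes and 110 to 125 CPM against 87.5 to 99.6 CPM for endothelium. Called as lower were 1 of 4 for oligodendrocytes, 1 of 5 for endothelium and 2 of 6 for astrocytes. Neurons had 1 higher and 2 lower of 8, and microglia 0 of 10. Of 6 oligodendrocyte markers 1 was at 0 throughout the PWS-IC wild types. The share of reads outside genes was lower in each PWS-IC wild type than in any Prepl wild type. The part of these measures in the difference was not tested.

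Summed over all 50 genes, the level was 5392 ± 384 CPM (SD, n = 4) for the Prepl wild types, 5428 ± 179 for the knockouts, 6285 ± 208 for the PWS-IC wild types and 6733 ± 120 for the deleted mice. Each mutant group lay nearer its own wild types than the wild types lay to each other. Core genes summed to 1785 to 2218 CPM in the Prepl wild types and 2012 to 2179 in the knockouts, then to 2369 to 2643 for the PWS-IC wild types and 2641 to 2829 for the deleted mice. Cap genes summed to 2678 to 3064, 2775 to 3037, 3214 to 3415 and 3448 to 3587 CPM in the same order. The cap sums of the deleted mice lay above all 4 of their wild types, while for the core deleted replicate 1 (2641 CPM) lay just below wild type replicate 4 (2643 CPM). Regulators summed to 446 to 485 CPM in the PWS-IC wild types and 453 to 492 CPM in the deleted mice, in overlapping ranges.

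**Figure D3:**
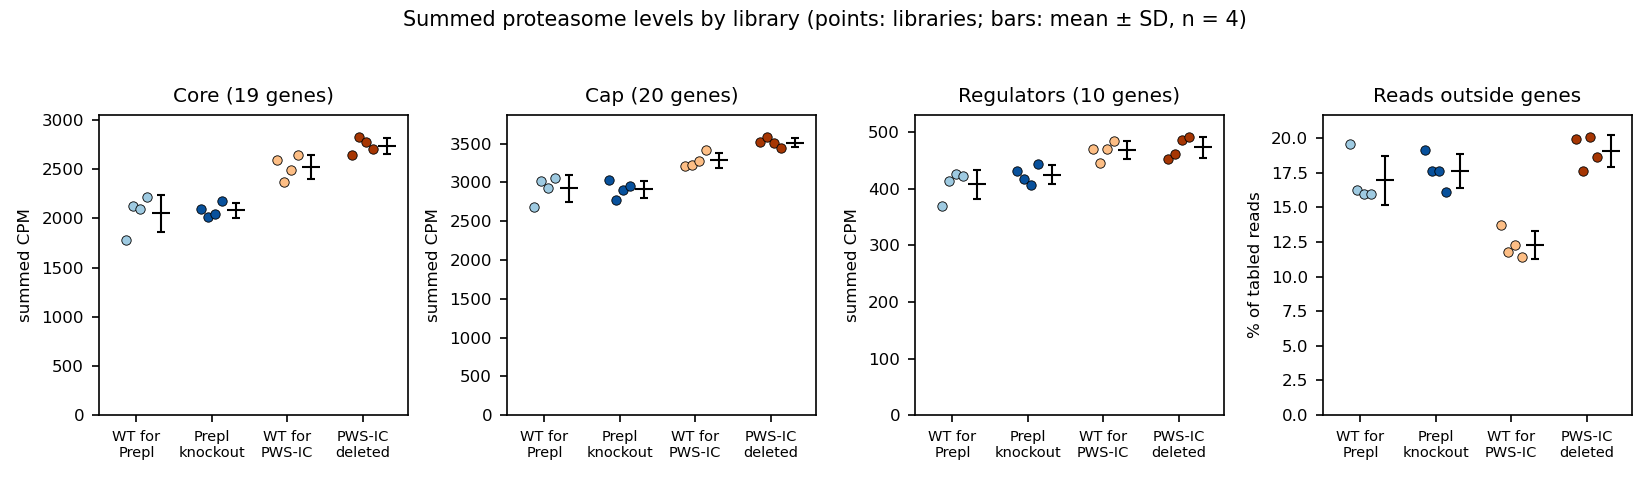
Summed CPM of the core, cap and regulator genes, and the percent of tabled reads outside genes (vertical axes, from 0), in each library by group with the mean ± SD of 4 libraries. Sums of the PWS-IC groups lie above those of the Prepl groups for core and cap. For the regulators they lie only just above (446 CPM at the lowest against 445 CPM at the highest). The share outside genes separates the PWS-IC wild types (11.4% to 13.7%) from the other groups.

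Other genes of the ubiquitin-proteasome pathway were read from a list of 38 in the counts, of which 37 were tested. In the Prepl knockout 0 were called, where 0.262% of all genes were. At an unadjusted edgeR p under 0.05 stood 3 (8.11%, against 9.43% of all genes). In the deletion 1 rose and 2 fell (8.11% called, against 4.52% of all genes). Pomp, the chaperone that matures the beta ring and so works beside the Psmg proteins, measured 327, 328, 329 and 360 CPM in the wild types and 505, 508, 477 and 482 CPM in the deleted mice, well clear of each other (0.56 ± 0.077, SE, n = 4, edgeR adjusted p = 0.00023). Uba1, the main ubiquitin-activating enzyme, measured 456, 484, 437 and 446 CPM against 337, 381, 328 and 324 CPM (-0.41 ± 0.084, adjusted p = 0.0077). Ufd1l, a cofactor of the Vcp segregase that extracts tagged proteins, measured 104, 120, 117 and 116 CPM against 71.0, 77.1, 80.8 and 83.0 CPM (-0.54 ± 0.088, adjusted p = 0.0013). For both, every deleted library lay below every wild type. Ufd1l was the 1 gene of this list whose effect differed between the mutations (-0.62 ± 0.113, adjusted p = 0.0033). That is 2.7% of the list, against 0.778% of all genes. Nfe2l1, which encodes the factor Nrf1 that drives proteasome genes when the proteasome is inhibited, gave 0.08 ± 0.091 (adjusted p = 0.721).

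Many proteasome genes have copies elsewhere in the genome that can share reads with them. In the counts were 22 pseudogene symbols at least 90% identical over at least 200 bases, on the same strand, to a transcript of a member (GENCODE M21). With each symbol assigned to its best match alone, 15 members had a copy. Gm7928, assigned to Psme2, also met the rule for Psme2b. Another 2, A330044P14Rik and Gm17131, align to Psmc2 only on the opposite strand and were left out. Of 9 tested in the Prepl knockout 0 were called, where 0.262% of all genes were. At an unadjusted edgeR p under 0.05 were 0, against 9.43% of all genes. Of 12 tested in the deletion 1 was called, where 4.52% of all genes were. Of these 12, 3 stood at an unadjusted p under 0.05 (18.2% of all genes): Gm5356, Psmb5-ps and Gm6542. The called copy was Gm5356 (chromosome 8, 89186946 to 89187560), a copy of Psmb3 with 96.26% identity over 615 bases. It measured 1.03, 0.379, 0.182 and 0.190 CPM in the wild types and 3.37, 4.10, 3.16 and 2.59 CPM in the deleted mice, from 1 to 6 reads and 11 to 18 reads a library. With 10 reads reached in 0 wild types and 4 deleted libraries, it entered the test only through the group where it is high and so had to differ, and it was not tested in the Prepl comparison. Its fitted values are thus a description (log2 fold change 2.79 ± 0.499, SE, n = 4, edgeR adjusted p = 0.0026). Psmb3 itself measured 138, 118, 129 and 126 CPM against 103, 126, 121 and 124 CPM (-0.10 ± 0.089, adjusted p = 0.582), in overlapping groups. How alike they are is shown by 60 bases of each transcript, the stretch with the most differences, 6 of the 23 in the alignment, with capitals at the differing bases.
Psmb3-201, bases 371 to 430: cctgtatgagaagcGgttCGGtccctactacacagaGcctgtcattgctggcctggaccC
Gm5356-201, bases 282 to 341: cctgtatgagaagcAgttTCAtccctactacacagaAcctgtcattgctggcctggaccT
The whole alignment of 615 bases has 0 gaps.

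**Figure D4:**
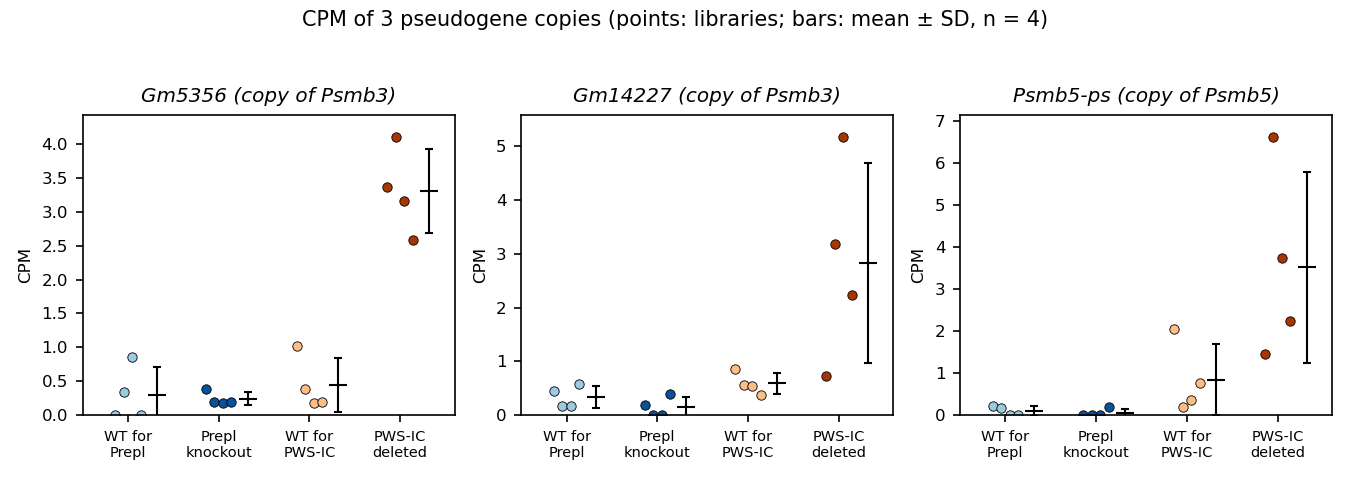
CPM (vertical axis, from 0) of 3 pseudogene copies in each library by group, with the mean ± SD of 4 libraries. Gm5356 lies between 2.59 and 4.10 CPM in the deleted mice and at most at 1.03 CPM in the other 12 libraries.

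Summed over its 5 copies in the counts, reads at the copies came to 8.56% of those at Psmb3 in the Prepl wild types, 9.14% in the knockouts, 8.82% for the PWS-IC wild types and 14.97% for the deleted mice. For Psmb5 and its 1 copy in the counts, Psmb5-ps, they came to 0.306%, 0.1502%, 2.09% and 9.28%. Psmb5-ps measured 2.05, 0.189, 0.364 and 0.762 CPM in the PWS-IC wild types and 1.44, 6.61, 3.74 and 2.24 CPM in the deleted mice, with overlap. It too was tested mainly through the deleted mice, where 3 libraries reached 10 reads against 1 wild type (1.99 ± 0.570, SE, n = 4, edgeR adjusted p = 0.052). Gm6542, a copy of Psma4 with 96.81% identity, measured 12.7 ± 3.29 CPM (SD, n = 4) in the wild types and 18.8 ± 3.79 CPM in the deleted mice (0.58 ± 0.197, SE, edgeR adjusted p = 0.0999), the same direction as Psma4. The other copies tested gave -0.38 ± 0.314 (Gm7776) to 0.69 ± 0.431 (Gm14830), all in overlapping groups. The deleted mice are also the group with more reads outside genes, and the part of that in the copies' counts was not tested.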

How the data were processed

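RNA was measured in 16 mouse brain libraries (Lexogen QuantSeq, poly(A) capture, per the labels' protocols). The authors deposited whole-number counts of reads for 43472 gene symbols per library; per the submitters' processing notes, HISAT2, HTSeq and the mm10 build were used. The sources used here give no versions, annotation or strand setting. The 5 totals in each table that name no gene stayed out of library sizes; the share outside genes is 1 of them over all tabled reads. CPM was computed here from the deposited counts.

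Each mutant was tested against its own wild types (8 libraries) with edgeR 4.0.16 under R 4.3.3: filterByExpr (minimum count 10, minimum total 15), TMM, quasi-likelihood F-test, Benjamini-Hochberg over all genes, threshold 0.05. Contrasts between the mutant effects and between the wild types came from 1 fit of all 16 libraries. SE is the absolute log2 fold change over the square root of F. The procedure was tested on simulated data. Alternatives used DESeq2 1.42.0, limma 3.58.1 voom, other factors and filters, covariates, a replicate block and leaving out each library. The wild-type alternatives and the sums without Psmc3ip were chosen after seeing the data.

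The members, lists and tests were chosen with earlier results of these data known. Named with all values were called members, members without overlap (at most 6 per comparison by p), the 6 catalytic beta genes, and the highest and lowest tested; Psmb1, Psma2, Psmb3, Psme1, Psme4 and the pseudogene copies were added after their values were seen. Of the list of other pathway genes, called genes were named; Nfe2l1, Vcp and the copies' values were chosen after they were seen. Coordinates are those of GENCODE M21 (GRCm38, the assembly mm10 denotes). Copies were found by aligning transcripts of members to all transcripts, and kept where both lay on the same strand. Promoters are RefSeq windows, of which 250 bases before the RefSeq start were searched; as a check of strand, the last 50 bases of 37 of the 45 windows lie in a GENCODE transcript of the gene, and the other 8 were not looked into.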

Additional observations from a re-analysis of the deposited data

Results flagged for a closer look

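In 64 groups of 4 libraries examined for a library far from the others (Dixon's test at 95%, by which chance flags about 1 in 20 groups), 4 stood out. Psma4 measured 97.7 CPM in replicate 2 of the PWS-IC wild types, with the other 3 at 133 to 139 CPM. Psmb7 measured 184 CPM in replicate 1 of the deleted mice, with the others at 206 to 210 CPM. Psmb10 measured 33.7 CPM in replicate 4 of the Prepl wild types, the 1 male of that group, with the others at 29.7 to 30.1 CPM. The share of reads outside genes was 19.6% in replicate 1 of the Prepl wild types, with the others at 15.98% to 16.3%.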

How the results depend on the processing

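The number of proteasome genes called stayed at 0 in the Prepl knockout and in the difference between effects under every setting run, and at 19 to 23 between the wild types; without PWS-IC wild type replicate 2 that count was 22 higher and 1 lower. In the PWS-IC deletion the 5 calls became 8 with DESeq2, 9 with the replicate block, 9 with sex as a covariate, 9 in 1 fit of all 16 libraries, 0 with the share outside genes as a covariate (4 genes in all, and a median log2 fold change of 0.16) and 2 to 4 when 1 library was left out. In the block, sex and 16-library fits 8 of the 9 were higher and Psme1 was lower. That share separates the groups completely, so the covariate and the deletion cannot be told apart. Over all genes, the 616 calls of the deletion became 945 without a filter, 989 with the block, 1119 with sex, 999 in the 16-library fit and 362 to 653 with 1 library left out. The 36 calls of the knockout became 156 without a filter, 6 with sex, 18 in the 16-library fit, 61 with the share outside genes and 12 to 103 with 1 library left out. The 112 calls of the difference became 195 with DESeq2, 222 without a filter, 235 with sex and 67 to 134 with 1 library left out. Same-numbered libraries did not deviate together in every pair (correlation -0.067 to 0.047 in the Prepl groups and -0.022 to 0.182 in the PWS-IC groups), so the numbers were not taken as pairs. In the PWS-IC groups the same number also means the same sex, so these correlations cannot tell pairing from sex. The block left the members called at 0, 0 and 21 in the knockout, the difference and the wild types. Genes called in all came to 35, 96 and 3441 in the same order. The median of the members in the difference between effects crossed 0 among the settings (-0.02 as reported, 0.04 with sex). Depth limits Psmb8, Psmb9 and the pseudogene copies, which rest on few reads a library.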

Other observations

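Vcp, the segregase of the list of other pathway genes, stood furthest apart between the wild-type groups. It measured 24.1, 27.4, 29.1 and 28.2 CPM in the Prepl wild types and 263, 255, 239 and 256 CPM in the PWS-IC wild types (log2 difference 3.26 ± 0.095, SE, n = 4, edgeR adjusted p = 1.6e-21). Each mutant group matched the level of its own wild types, with 25.9 ± 4.30 CPM (SD, n = 4) in the Prepl knockouts and 252 ± 3.56 CPM in the deleted mice. Of the 37 genes of that list, 8 were higher in the PWS-IC wild types and 3 lower (29.7% called, against 24.4% of all genes). Colony, batch and group cannot be told apart here, and the sources used here do not name the gene annotation behind the counts of either comparison. All 16 libraries list the same 43472 symbols. The part of annotation in the Vcp difference was not tested.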
